A study of Mus musculus with 28 samples.

Results

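The 10 genes described here serve the uptake of dietary lipid by enterocytes, the absorptive cells of the small intestine, and its export in lipoproteins: Cd36, Npc1l1, Fabp1, Fabp2, Dgat1, Apob, Mttp, Apoa1, Apoa4 and Apoc3. They were chosen by gene symbol and make up 10 of the 54354 genes in the deposited table. All 10 passed the filter on low counts that left 12495 genes for testing. Every library came from the small intestine of mice of the genotype Lgr5-GFP, in which green fluorescent protein reports Lgr5, the receptor gene that marks crypt stem cells. The 4 groups were Lgr5-high cells on control diet, Lgr5-high cells on cystine diet, Lgr5-low cells on control diet and Lgr5-low cells on cystine diet, with 7 libraries each, and cystine is the oxidised dimer of cysteine. The study's title concerns dietary cysteine and intestinal stemness. The labels name no age, sex or strain, and nothing in them ties each library to its own animal. The p-values below therefore rest on variation from library to library, some of which may be technical. The extraction protocol in the labels names organoids, cultured epithelial structures, while the design text names isolated cell populations.

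Lipid absorption runs in steps. Fatty acids and cholesterol enter at the brush border, binding proteins carry fatty acids through the cytosol, and triglyceride is rebuilt in the endoplasmic reticulum. The microsomal transfer protein then loads it onto apolipoprotein B to form chylomicrons, which acquire exchangeable apolipoproteins and leave towards the lymph. In the intestine these genes are known as markers of mature villus enterocytes, whereas crypt stem cells express them weakly, and the liver uses several of them to build its own lipoproteins.

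Library depth ranged from 2.75 to 21.5 M (mega) counts. Levels below are CPM, each library's counts scaled to a common total with TMM factors, and differences are log2 fold changes from edgeR's quasi-likelihood test with p adjusted over all 12495 tested genes (Benjamini-Hochberg, two-sided), where an adjusted p under 0.05 counts as passing. The sort showed in the marker genes: Lgr5 lay at 16.2 to 45.1 CPM in the Lgr5-high libraries and at 0.214 to 10.9 CPM in the Lgr5-low libraries, and all 10 genes of a stem cell list were higher in Lgr5-high cells averaged over both diets. In that comparison 7 of 20 brush border enterocyte genes passed as lower in Lgr5-high cells (median log2 fold change over the 20 of -0.96). Of all 12495 tested genes, 469 passed as higher and 631 (5.05%) as lower. The stem cell gene Olfm4 had group medians of 4962 and 4471 CPM in Lgr5-high cells (control, then cystine) and of 1074 and 1440 CPM in Lgr5-low cells. The enterocyte alkaline phosphatase gene Alpi had medians of 35.3 and 19.6 CPM in Lgr5-high cells and of 58.7 and 63.8 CPM in Lgr5-low cells, in the same diet order. In bulk libraries, fewer enterocytes and less RNA of these genes per enterocyte cannot be told apart.

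The members lie on 7 chromosomes of the mouse genome (GRCm38, GENCODE M21). Apoa1 (chr9:46228580-46230466), Apoc3 (chr9:46232933-46235636) and Apoa4 (chr9:46240696-46243459) form a cluster of 14.88 kb, with Apoc3 on the minus strand between the others. The other genes are Cd36 (chr5:17781690-17888801), Npc1l1 (chr11:6211013-6230143), Fabp1 (chr6:71199827-71205023), Fabp2 (chr3:122895072-122899506), Dgat1 (chr15:76502015-76511953), Apob (chr12:7977648-8016835) and Mttp (chr3:138089854-138144968). All are protein-coding. Mttp, Fabp2 and Apoa4 overlap annotated genes on the opposite strand. The library kit keeps strand, but no source used here says whether the counting used it, so a contribution of those overlapping genes is uncertain.

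Promoter windows of 3 members are shown because they span the range of motif content within the set, from several searched motifs to none. Sequences are RefSeq windows of 300 bases on GRCm38.p6, read 5′ to 3′ along the gene, for Fabp1 (chr6:71199629-71199928, plus strand), Npc1l1 (chr11:6230196-6230495, minus strand) and Mttp (chr3:138143369-138143668, minus strand). Capitals mark the motif AGGTCA of nuclear receptors, the motif TTTATGG of the intestinal factor CDX2 and the motif GTTAAT of HNF1, each on either strand.
Fabp1: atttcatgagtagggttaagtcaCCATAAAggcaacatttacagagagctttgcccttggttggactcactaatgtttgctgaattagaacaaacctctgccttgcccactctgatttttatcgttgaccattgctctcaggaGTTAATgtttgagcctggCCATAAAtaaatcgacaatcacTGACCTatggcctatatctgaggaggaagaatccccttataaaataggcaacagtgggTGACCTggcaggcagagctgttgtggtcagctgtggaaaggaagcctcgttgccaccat
Npc1l1: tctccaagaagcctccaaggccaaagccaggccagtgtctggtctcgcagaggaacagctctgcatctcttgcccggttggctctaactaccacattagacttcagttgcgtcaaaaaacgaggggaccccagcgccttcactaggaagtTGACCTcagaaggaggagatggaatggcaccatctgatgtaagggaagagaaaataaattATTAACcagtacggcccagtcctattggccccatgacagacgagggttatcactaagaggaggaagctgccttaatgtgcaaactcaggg
Mttp: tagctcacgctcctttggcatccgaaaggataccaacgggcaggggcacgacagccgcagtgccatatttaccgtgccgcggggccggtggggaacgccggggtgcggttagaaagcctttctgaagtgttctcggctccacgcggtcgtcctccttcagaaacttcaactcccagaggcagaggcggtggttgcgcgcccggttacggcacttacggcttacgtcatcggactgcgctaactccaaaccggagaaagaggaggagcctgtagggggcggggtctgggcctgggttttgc
Windows were matched for 8 members, all but Apoc3 and Dgat1. AGGTCA stood in 3 of the 8, those of Cd36, Fabp1 and Npc1l1, and in 16.3% of all 32851 windows of the table. TTTATGG stood in the window of Fabp1 alone, with 2.75% of all windows, and GTTAAT in those of Fabp1 and Npc1l1, with 7.10% of all windows. The HNF4A motif CAAAGTCCA, the motif GGGTCA and the GATA motif AGATAA were in none of the 8 windows, against 0.475%, 13.7% and 11.2% of all windows. Such matches describe the letters in these windows only. The windows of Mttp and Cd36 lie inside the annotated spans of these genes, which have 3 and 6 transcripts. Other transcript starts of these genes were not searched.

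Levels of different genes are compared here on the scale of mean CPM per kb of exon, where they ran from 0.942 to 22512. Fabp1, the fatty acid binding protein shared with the liver, stood first in every group, at 8692 CPM per kb in Lgr5-high control and 22512 in Lgr5-low cystine libraries. Fabp2, the intestinal fatty acid binding protein, came second with 911 to 1185 CPM per kb. Apoa1, Apoc3 and Apoa4 followed at 166 to 334, 84.7 to 169 and 28.6 to 57.4 CPM per kb. Mttp reached 12.9 to 27.5 and Dgat1 9.08 to 20.4 CPM per kb. Npc1l1 (4.81 to 14.4) and Apob (5.10 to 7.279) had overlapping ranges, so their order depends on the group. Cd36 was lowest at 0.942 to 2.99 CPM per kb. Neighbours in this order were not tested against each other.

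**Figure D1:**
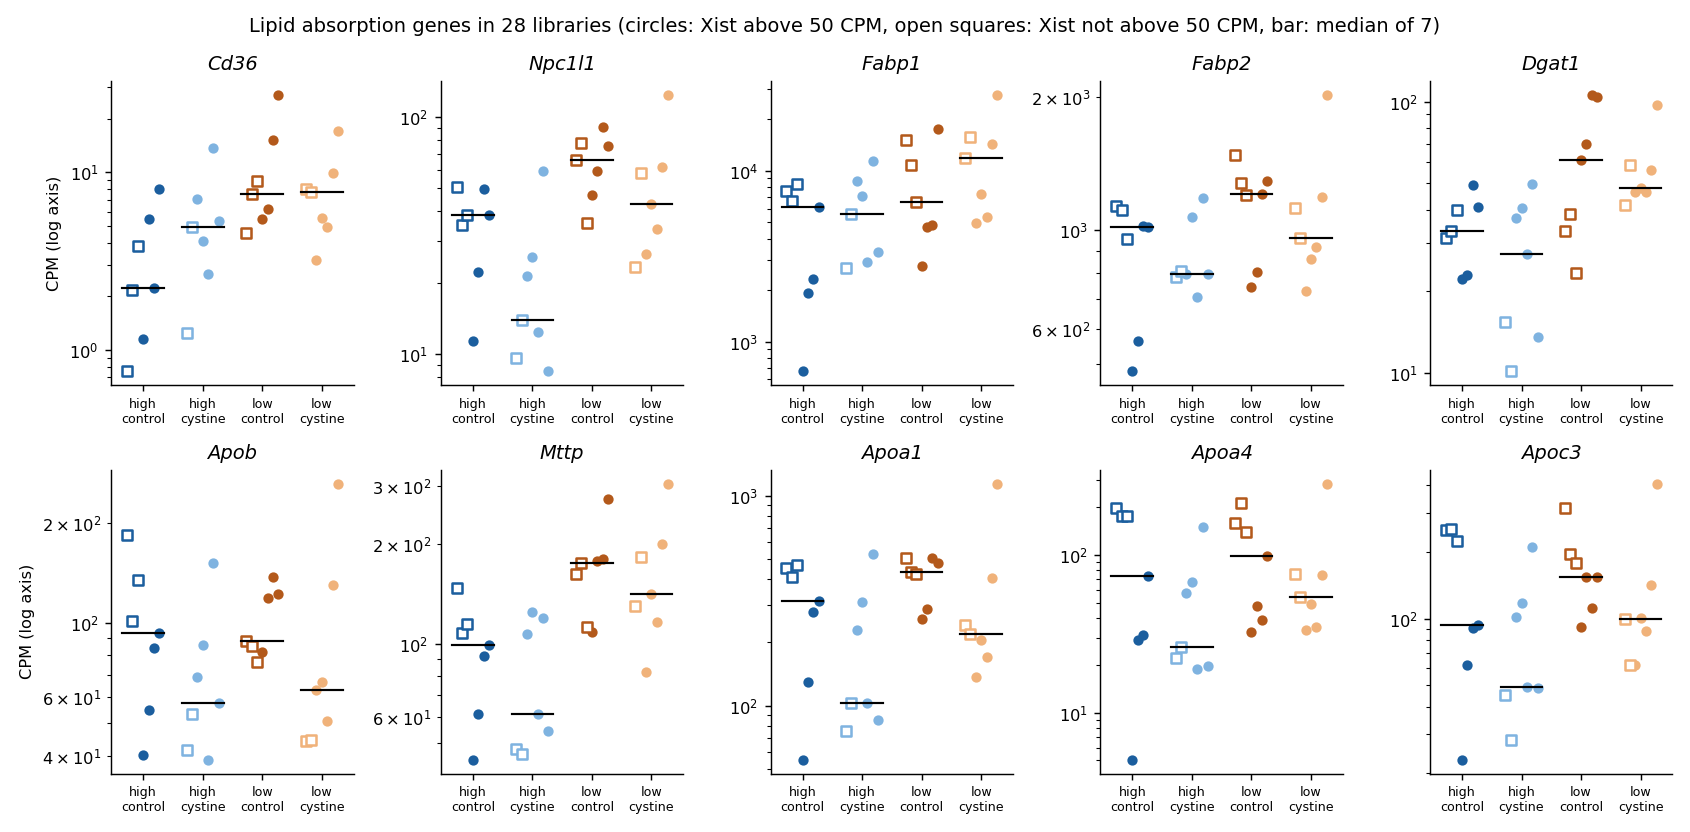
Levels of the 10 genes in each of the 28 libraries, as CPM on a log axis, by group. Each point is 1 library, bars are medians of 7, and open squares are the libraries with Xist not above 50 CPM; for Mttp, 5 of the 7 Lgr5-high control libraries lie below all Lgr5-low control libraries.

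The first comparison asked how the lipid genes differ between stem-enriched and Lgr5-low cells. Averaged over both diets, all 10 log2 fold changes were negative, and 4 of the 10 passed the test as lower in Lgr5-high cells: Mttp, Dgat1, Npc1l1 and Cd36. Among all tested genes 8.8% were called in this comparison, 5.05% as lower. The median over the members was -0.79, against -0.02 over all tested genes, and -0.51 without replicate 7 of both cystine groups. The 4 that passed act in uptake, triglyceride synthesis and particle loading, while none of the 4 apolipoprotein genes passed.

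Of the genes that act at the brush border, Npc1l1 encodes the sterol transporter through which cholesterol enters. It measured 11.3, 38.6 and 50.6 CPM (lowest, median and highest) in Lgr5-high control and 8.49, 14.0 and 59.0 CPM in Lgr5-high cystine libraries. In Lgr5-low cells the corresponding values were 35.9, 65.6 and 90.6 CPM on control diet and 23.3, 42.9 and 124 CPM on cystine diet. All 7 Lgr5-high control libraries lay below the Lgr5-low control median and 5 of the 7 Lgr5-high cystine libraries lay below every Lgr5-low cystine library, so the groups overlapped in part on both diets. The fold change was -1.10 ± 0.28 (SE), 2.15-fold lower, with an adjusted p of 0.0102. It passed in all 28 fits that each left out 1 library.

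Cd36 encodes a fatty acid translocase that is also made by macrophages and adipocytes. In Lgr5-high control libraries it measured 0.759, 2.24 and 8.04 CPM, resting on 3 to 132 counts, and in Lgr5-high cystine libraries 1.25, 4.89 and 13.6 CPM. The Lgr5-low libraries gave 4.56, 7.50 and 27.3 CPM on control diet and 3.19, 7.77 and 17.0 CPM on cystine diet. Most Lgr5-high control libraries, 5 of 7, fell below all Lgr5-low control libraries, but only 2 of 7 did so on cystine diet. Its averaged difference of -1.10 ± 0.36 passed narrowly (adjusted p = 0.0494) and lost the call in 16 of the 28 fits that left out 1 library. The highest of those adjusted p-values was 0.123, without Lgr5-low control replicate 7 (log2 fold change -0.89). The other libraries were replicate 6 of Lgr5-low control, replicates 2, 4, 6 and 7 of Lgr5-low cystine, replicates 1, 2, 3, 4 and 6 of Lgr5-high control and replicates 1, 2, 4, 5 and 7 of Lgr5-high cystine. RLE size factors (0.0528), no low-count filter (0.0554), leaving out libraries under 5 M counts (0.050016) and a hepatocyte score term (0.0508) also brought it above the threshold. Among adipocyte markers, Adipoq, Plin1 and Lep were at 0 in every library. The summed level of 10 macrophage markers had a median of 328 CPM (13.5 to 550) in Lgr5-high cystine libraries, against 41.9 (23.3 to 48.4) in Lgr5-high control, 21.9 (10.2 to 69.3) in Lgr5-low control and 35.8 (25.6 to 119) in Lgr5-low cystine libraries. For 6 endothelial markers, the medians of the summed level in Lgr5-high cells were 97.8 CPM on control and 114 CPM on cystine diet. In Lgr5-low cells they were 181 and 176 CPM. Of these markers, Pecam1 had medians of 95.7, 101, 180 and 174 CPM in the same order. Cdh5 had medians of 0.244, 1.75, 0 and 0.379 CPM. The part of macrophage or endothelial transcripts in the Cd36 values was not tested.

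The cytosolic binding proteins did not pass in edgeR's main test. A replicate block shared by both diets left Fabp1 at an adjusted p of 0.123 and Fabp2 at 0.0935 with edgeR. Fabp1 spanned 670, 6112 and 8360 CPM in Lgr5-high control, 2676, 5589 and 11443 CPM in Lgr5-high cystine, 2777, 6589 and 17607 CPM in Lgr5-low control and 4905, 11865 and 27738 CPM in Lgr5-low cystine libraries. All 7 Lgr5-high cystine libraries lay below the median of Lgr5-low cystine cells, but on control diet only 4 of 7 lay below the Lgr5-low median. The averaged difference was -0.98 ± 0.37 (adjusted p = 0.102). It passed with DESeq2 (0.0465), with a replicate block within diet (0.0395) and with that block as a random effect in limma-voom (0.0259). The coefficients of variation of Fabp2 were 20.0% to 38.4% by group. It measured 481, 1016 and 1133 CPM in Lgr5-high control, 708, 799 and 1181 CPM in Lgr5-high cystine, 744, 1205 and 1476 CPM in Lgr5-low control and 731, 961 and 2021 CPM in Lgr5-low cystine libraries. The ranges of Lgr5-high and Lgr5-low cells overlapped on both diets, and the difference was -0.35 ± 0.15 (adjusted p = 0.145, or 0.0329 with the replicate block within diet).

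Dgat1 encodes an acyltransferase that makes the final bond of triglyceride. Its levels were 22.2, 33.5 and 49.2 CPM in Lgr5-high control and 10.1, 27.4 and 49.7 CPM in Lgr5-high cystine libraries, against 23.3, 60.8 and 106 CPM in Lgr5-low control and 41.6, 48.0 and 97.1 CPM in Lgr5-low cystine libraries. On cystine diet 6 of the 7 Lgr5-high libraries fell below all Lgr5-low libraries, and replicate 6 was the exception. The averaged difference of -0.95 ± 0.22, 1.93-fold lower, passed with an adjusted p of 0.0045 and kept the call in all 28 fits without 1 library.

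Among the chylomicron assembly genes, Mttp and Apob behaved differently on the same test. Mttp encodes the large subunit of the microsomal triglyceride transfer protein. It measured 44.5, 98.9 and 147 CPM in Lgr5-high control and 46.5, 61.3 and 124 CPM in Lgr5-high cystine libraries. Its levels in Lgr5-low cells were 109, 176 and 275 CPM on control diet and 82.1, 141 and 305 CPM on cystine diet. All 7 Lgr5-high libraries lay below the matching Lgr5-low median on either diet. Mttp had the lowest adjusted p of the 10 genes, 0.0013, for a difference of -0.94 ± 0.19 (1.92-fold lower), and passed in all 28 fits without 1 library.

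Apob encodes the structural protein of the chylomicron. It spanned 40.1, 93.3 and 184 CPM in Lgr5-high control, 38.9, 57.5 and 152 CPM in Lgr5-high cystine, 76.3, 88.4 and 137 CPM in Lgr5-low control and 44.2, 62.9 and 262 CPM in Lgr5-low cystine libraries. The groups overlapped widely, and 4 of the 7 Lgr5-high control libraries exceeded the Lgr5-low control median. The difference of -0.23 ± 0.27 did not pass (adjusted p = 0.691), with a 95% interval (normal approximation, as for all intervals below) of -0.76 to 0.30 that includes 0. Whether Mttp and Apob differ from each other was not tested.

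Among the exchangeable apolipoproteins, Apoa1, the main protein of high-density lipoprotein, measured 55.2, 316 and 465 CPM in Lgr5-high control, 76.2, 103 and 524 CPM in Lgr5-high cystine, 258, 432 and 506 CPM in Lgr5-low control and 137, 220 and 1139.8 CPM in Lgr5-low cystine libraries. Apoa4, an intestinal apolipoprotein made during fat absorption, measured 5.04, 74.0 and 199 CPM in Lgr5-high control libraries, a 39.5-fold range within 1 group. Its values were 18.9, 26.2 and 151 CPM in Lgr5-high cystine, 32.5, 98.1 and 213 CPM in Lgr5-low control and 33.4, 53.9 and 284 CPM in Lgr5-low cystine libraries. Apoc3, which restrains lipoprotein lipase, measured 23.0, 93.2 and 254 CPM, then 28.3, 49.3 and 211 CPM, 91.8, 155 and 316 CPM and 61.8, 99.4 and 408 CPM in the same order of groups. The Lgr5-high and Lgr5-low libraries overlapped for all 3 genes on both diets. Their averaged differences were -0.64 ± 0.36 for Apoa1, -0.41 ± 0.48 for Apoa4 and -0.48 ± 0.37 for Apoc3, with adjusted p-values of 0.314, 0.688 and 0.493.

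**Figure D2:**
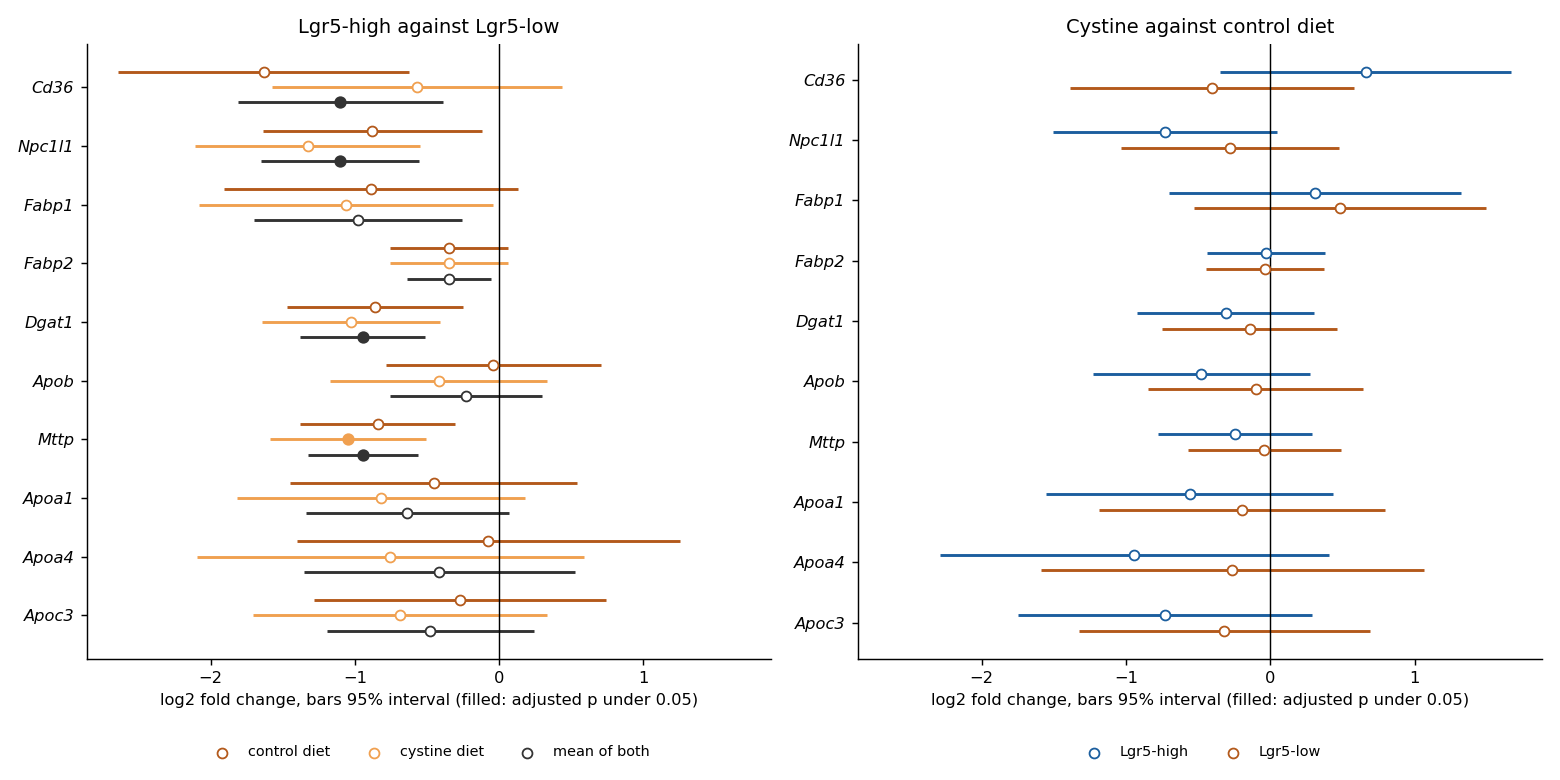
Log2 fold changes of the 10 genes with bars of the 95% interval: Lgr5-high minus Lgr5-low cells for either diet and averaged, and cystine against control diet in each population. Filled points passed an adjusted p of 0.05; Mttp, Dgat1, Npc1l1 and Cd36 are filled for the mean of both diets and Mttp also on cystine diet, and no diet comparison has a filled point.

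Within a single diet fewer members passed. On control diet 0 of 10 were called, where 1.8% of all tested genes were, although all 10 differences were negative (median -0.65) and 4 had an unadjusted p under 0.05, as did 1607 of all 12495 genes. DESeq2 called 1 member there, Cd36 (adjusted p = 0.0347), and limma-voom called 3, Mttp, Dgat1 and Npc1l1 (adjusted p = 0.0287, 0.0273 and 0.0390). Without Lgr5-high control replicate 7, edgeR called Cd36 as well (adjusted p = 0.0447, log2 fold change -2.02). On cystine diet 1 of 10 passed, Mttp (-1.05 ± 0.27, adjusted p = 0.0304), where 2.64% of all tested genes were called. All 10 differences were again negative, with a median of -0.79. That median was -0.23, with 9 negative values, without Lgr5-low cystine replicate 7, -1.21 without Lgr5-high cystine replicate 6 and -1.29 without libraries under 5 M counts. The Mttp call on this diet was lost in 7 of 28 fits without 1 library, namely replicates 2, 6 and 7 of Lgr5-low cystine and replicates 1, 2, 5 and 7 of Lgr5-high cystine, with the highest adjusted p of 0.109 without Lgr5-low cystine replicate 7. Without Lgr5-high cystine replicate 6, which had the highest level in its group for 9 of the 10 members, Dgat1 (adjusted p = 0.0272) and Npc1l1 (0.0036) passed too, and Mttp stayed called.

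The second comparison asked whether the cystine diet changed these genes. In Lgr5-high cells 0 of 10 members passed, where 0.168% of all tested genes were called, and no member had an unadjusted p under 0.05. The log2 fold changes of cystine against control ran from -0.94 ± 0.69 for Apoa4 to 0.66 ± 0.52 for Cd36, and 8 of 10 were negative (median -0.39, against -0.02 over all tested genes, and -0.65 without Lgr5-high cystine replicate 6). Without libraries under 5 M counts the Cd36 value was -0.20. All adjusted p-values were 1.0 there. DESeq2 and limma-voom also called 0 members. The 4 apolipoprotein genes had differences of -0.48 to -0.94, and the intervals of all 4 included 0: Apoa4 could lie between -2.29 and 0.40, and Apoc3 between -1.75 and 0.29. Fabp2 was bounded more tightly, at -0.03 with an interval of -0.44 to 0.38.

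In Lgr5-low cells the diet differences ran from -0.40 for Cd36 to 0.48 for Fabp1, and 0 of 10 passed with edgeR, DESeq2 or limma-voom, where 0% of all tested genes were called with edgeR and no member had an unadjusted p under 0.05. Their median was -0.17, and it moved to -0.64 without Lgr5-low cystine replicate 7, to -0.03 without Lgr5-low control replicate 7 and to 0.03 without libraries under 5 M counts. The diet effects of the populations were compared directly by an interaction contrast. Its values ranged from -0.68 ± 0.96 for Apoa4 to 1.06 ± 0.72 for Cd36, with a median of -0.28. Both extremes changed direction, Cd36 to -0.21 without libraries under 5 M counts and Apoa4 up to 0.11 on omission of libraries, and the median was 0.15 without Lgr5-low cystine replicate 7. 0 of the 10 passed with edgeR, DESeq2 or limma-voom (0% of all tested genes with edgeR, and 0 members with an unadjusted p under 0.05). Averaged over both populations the diet difference was -0.60 ± 0.48 for Apoa4, -0.50 ± 0.28 for Npc1l1 and 0.40 ± 0.37 for Fabp1, and 0 of 10 passed with edgeR, DESeq2 or limma-voom (0.16% of all tested genes with edgeR, and 0 members with an unadjusted p under 0.05).

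The libraries also divide by Xist, the transcript that silences an X chromosome in females. Replicates 1 to 3 on control diet and 1 and 2 on cystine diet had Xist not above 50 CPM in both populations, and the other replicates had it above. This division was taken from the data, it coincides with replicate number, and so sex and any batch that follows the numbers cannot be told apart. In Lgr5-high control libraries Apoa4 was at 178 to 199 CPM in the 3 libraries with low Xist and at 5.04 to 74.0 CPM in the 4 others. Apoc3 was at 224 to 254 CPM against 23.0 to 93.2 CPM. Neither passed between these sets with edgeR (adjusted p = 0.315 and 0.268). Apoa1, Apob, Fabp1 and Mttp also did not overlap, while Fabp2, Dgat1, Npc1l1 and Cd36 did. The share of all tested genes without overlap was not computed for this or the following cystine comparison. The lack of overlap is therefore not read as a trait of these genes. In Lgr5-high cystine cells the sets overlapped for Apoa4, at 22.4 and 26.2 CPM in the 2 low-Xist libraries and 18.9 to 151 CPM in the 5 others. Apoc3 did not overlap there, at 28.3 and 45.1 against 48.8 to 211 CPM, and neither did Mttp, at 46.5 and 48.0 against 54.5 to 124 CPM. For both genes the low-Xist libraries were the lower ones, and neither passed with edgeR (adjusted p = 0.371 for Apoc3 and 0.348 for Mttp).

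Recomputed within these sets of libraries, the diet difference in Lgr5-high cells was negative for 9 of 10 members among the 5 low-Xist libraries and positive for 8 of 10 among the 9 others. Among the low-Xist libraries Apoc3 gave -2.71 ± 0.78 (adjusted p = 0.226), Apoa4 -2.94 ± 1.08 (0.414), Apoa1 -2.31 ± 0.89 (0.441), Mttp -1.38 ± 0.48 (0.366) and Dgat1 -1.43 ± 0.43 (0.214). For 7 of the 10 the unadjusted p was under 0.05, as for 1106 of all 12495 genes, but 0 of 10 passed (0.024% of all tested genes). Among the other libraries the same 5 genes gave 0.65, 0.84, 0.36, 0.33 and -0.01, and 0 of 10 passed (0.088%). The contrast between these diet differences was negative for all 10 members, with -3.35 ± 0.93 for Apoc3 and -3.77 ± 1.29 for Apoa4. Its adjusted p-values were 0.420 and 0.611, and 0 of 10 passed with edgeR (0% of all tested genes), where 6 had an unadjusted p under 0.05, as did 774 of all 12495 genes. DESeq2 called Apoc3 in the low-Xist diet comparison (adjusted p = 0.0209) and in that contrast (0.0364), and limma-voom called 0. The low-Xist comparison rests on 3 libraries against 2. In Lgr5-low cells 0 of 10 passed among the high-Xist libraries (0% of all tested genes), among the low-Xist libraries (0.152%) and in the contrast between them (0.112%). Among the low-Xist libraries the values ran from -1.52 ± 0.73 for Apoc3 to 0.66 ± 0.39 for Dgat1, and 4 of 10 were positive.

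**Figure D3:**
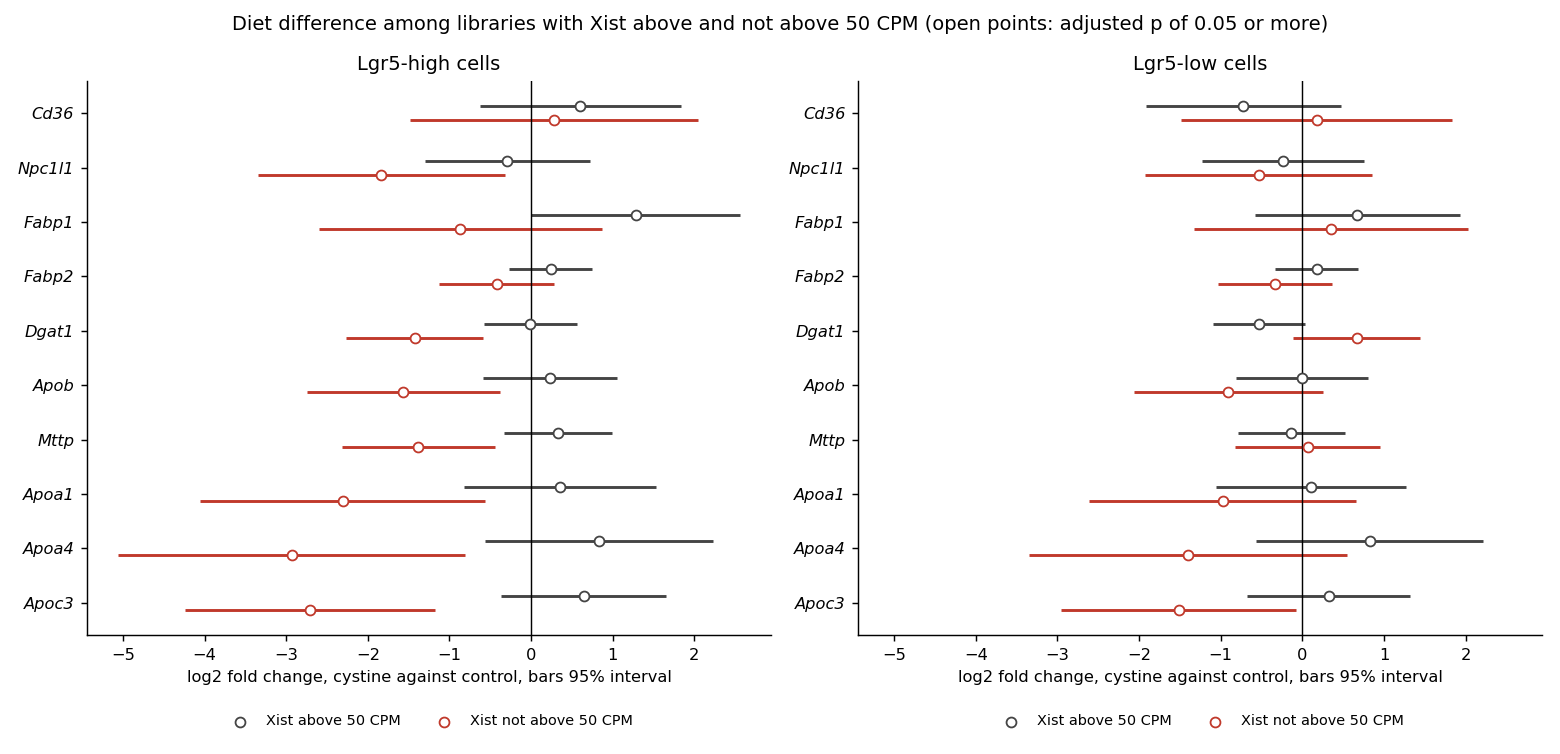
Diet difference (log2 fold change, cystine against control, bars of the 95% interval) of the 10 genes in Lgr5-high and Lgr5-low cells, separately for libraries with Xist above and not above 50 CPM. In Lgr5-high cells 9 of 10 values of the low-Xist libraries are negative and 8 of 10 of the others are positive, and every point is open because none passed.

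Within the same sets, the population difference of Dgat1 passed in some and not in others. On control diet it was -1.33 ± 0.31 among the high-Xist libraries (adjusted p = 0.0098) and 0.14 ± 0.36 among the low-Xist libraries (0.907). On cystine diet the values were -0.81 ± 0.28 (0.133) and -1.95 ± 0.46 (0.0145). The differences between these values were not tested. Mttp passed among the high-Xist control libraries (-1.32 ± 0.36, adjusted p = 0.0399), so that 2 of 10 members were called there, with 3.46% of all tested genes. The counts were 0 of 10 among low-Xist control (2.63%), 0 of 10 among high-Xist cystine (2.05%) and 1 of 10 among low-Xist cystine libraries (3.1%). These calls rested on few libraries: Mttp lost its call in 6 of 28 fits without 1 library (replicates 5, 6 and 7 of Lgr5-low control and 4, 5 and 6 of Lgr5-high control, with adjusted p up to 0.137 without Lgr5-low control replicate 7). Dgat1 lost it in 3 of 28 on control diet (replicate 6 of Lgr5-low control and 4 and 5 of Lgr5-high control, up to 0.0581 without Lgr5-high control replicate 4) and in 2 of 28 on cystine diet (replicate 2 of either population, up to 0.168 without Lgr5-high cystine replicate 2). Dgat1 was also lower in the low-Xist than in the high-Xist libraries of Lgr5-low control cells, at 23.3 to 38.6 against 60.8 to 106 CPM with no overlap (-1.42 ± 0.34, adjusted p = 0.0034). In that comparison 16% of all tested genes were called, and Dgat1 was the 1 member of 10. The same comparison called 0 of 10 in Lgr5-high control (0.416%), Lgr5-high cystine (0.536%) and Lgr5-low cystine libraries (4.06%). In Lgr5-high control libraries edgeR gave 2.41 ± 0.80 for Apoa4 (adjusted p = 0.315), whereas limma-voom called it (0.0016) and Apoc3 (0.0046).

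The members followed the brush border genes from library to library. The mean log2(CPM + 1) of the 10 members and that of the 20 brush border genes had a Pearson r of 0.992 in Lgr5-high control, 0.982 in Lgr5-high cystine, 0.914 in Lgr5-low control and 0.989 in Lgr5-low cystine libraries, over 7 libraries each. Spearman's rho was 0.964, 0.964, 0.964 and 0.893. Without the 2 libraries farthest from the median of the brush border score, r was 0.942, 0.924, 0.885 and 0.924. Both scores share library, depth and scaling factor, and these values are a description. With hepatocyte genes, many of which the liver secretes into plasma, r was 0.620, 0.233, 0.847 and -0.584 and rho 0.607, 0.464, 0.964 and -0.286 in the same order. Without the 2 libraries farthest from the median of the hepatocyte score r was 0.634, 0.524, 0.610 and -0.0532. The r of Lgr5-low cystine libraries changed sign without 1 library (0.096). The summed level of 12 hepatocyte markers ranged from 276 to 1256 CPM over all libraries, and Alb from 38.1 to 354 CPM, so such transcripts were present in every library. Their part in the members' values was not tested.

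**Figure D4:**
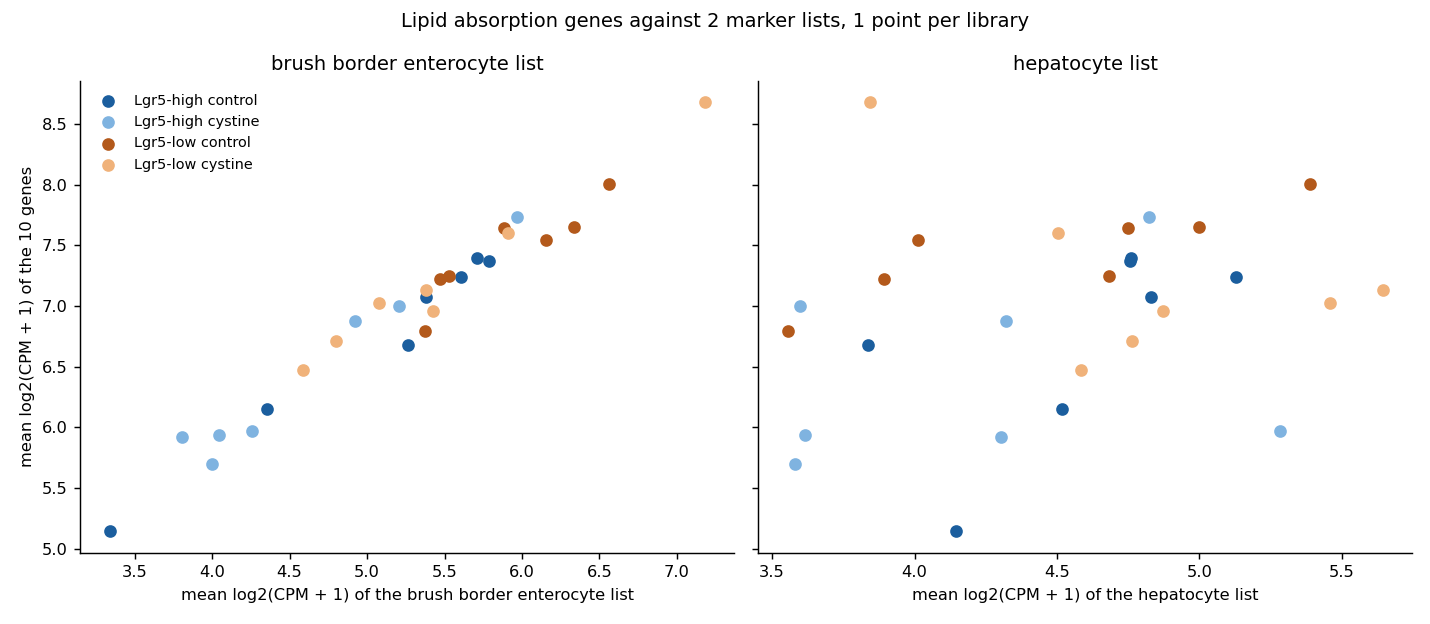
Mean log2(CPM + 1) of the 10 genes against that of 20 brush border genes (left) and of 12 hepatocyte genes (right), 1 point per library, coloured by group. The left points lie along a line in all 4 groups (r from 0.914 to 0.992), and on the right r ranges from -0.584 to 0.847 by group.

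The summed level of the brush border list was 1039 to 3067 CPM in Lgr5-high control, 1109 to 2886 in Lgr5-high cystine, 2510 to 4720 in Lgr5-low control and 1737 to 6269 in Lgr5-low cystine libraries. Replicate 7 of Lgr5-low cystine held the highest of these sums and replicate 4 of Lgr5-high control the lowest. The ileal bile acid binding protein Fabp6, which marks the distal small intestine, ranged from 2.57 to 818 CPM across libraries, and the part of gut region in the members' values was not tested.

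By Pearson correlation with the members' mean log2 level over all 28 libraries, the most alike other genes included Cyp3a13 (0.956), Cdhr2 (0.949), Acsl5 (0.948), Lgals3 (0.938), Spink1 (0.929), Ces2e (0.919), Creb3l3 (0.919) and Krt20 (0.917). Cdhr2 encodes a protocadherin of the brush border and Acsl5 an enzyme that activates fatty acids. Within single groups the r of Lgals3 ranged from 0.892 to 0.991 and that of Krt20 from 0.633 to 0.941.

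Other genes of the pathway, 58 of 59 listed being tested, gave 14 lower and 0 higher calls for Lgr5-high against Lgr5-low cells averaged over both diets. Their median was -0.60, and 47 of 58 values were negative. The background is the 5.05% of all tested genes called lower. The largest share lay in chylomicron assembly and secretion, with 6 of 10: Pla2g12b (-1.41), Tm6sf2 (-1.23), the cargo receptor gene Surf4 (-0.96), the apolipoprotein B mRNA editing enzyme gene Apobec1 (-0.93), the coat protein gene Sec23a (-0.78) and P4hb (-0.72), the small subunit of the microsomal transfer protein. Surf4 had the lowest adjusted p of the list (1.7e-06). The trafficking gene Sar1b did not pass. Summed levels of 7 goblet cell markers had medians of 13929 CPM (control) and 14327 CPM (cystine) in Lgr5-high cells. In Lgr5-low cells they were 28506 and 28536.5 CPM. Those of 7 enteroendocrine markers were 135 and 142 against 535 and 488 CPM. Those of 5 Paneth cell markers were 23046 and 20381 against 13558 and 22328 CPM. The part of secretory cells in these calls was not tested.

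In acyl activation and esterification 3 of 11 were lower: Mogat2 (-1.28), which makes diacylglycerol from monoacylglycerol, Agpat2 (-1.05) and Acsl5 (-0.74). The sterol exporter gene Abcg8 (-0.97) was the 1 of 7 called in uptake and sterol transport, and Cideb (-0.61), a gene of lipid droplet and lipoprotein lipidation, the 1 of 7 in lipid droplets and hydrolysis. Of 13 regulators, Hnf4g (-0.80), Gata4 (-0.65) and Klf5 (-0.54) were lower. Gata4 lost its call without replicate 7 of Lgr5-low control (adjusted p = 0.0727) or of Lgr5-low cystine cells. None of the 10 other apolipoprotein and binding protein genes passed, with Apoe at 0.68 ± 0.25 (adjusted p = 0.0885).

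**Figure D5:**
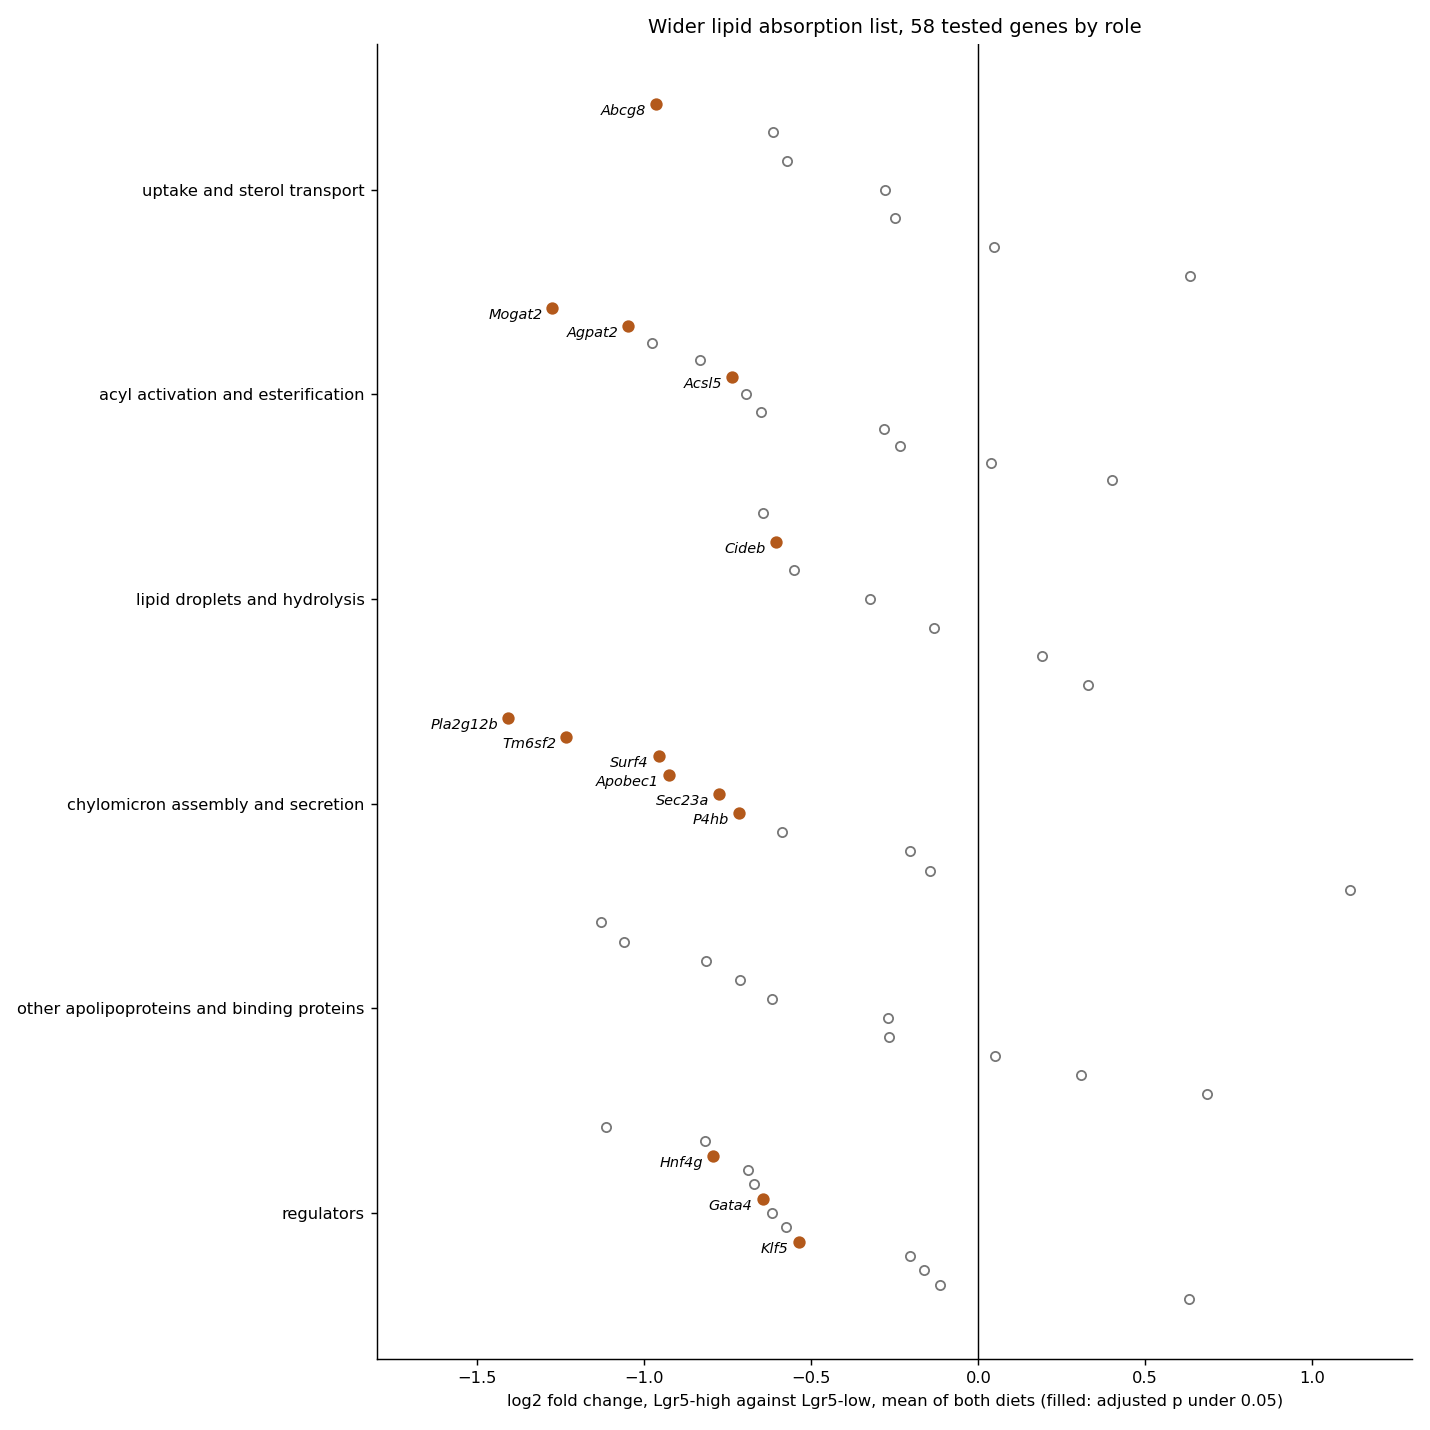
Log2 fold changes of Lgr5-high against Lgr5-low cells, averaged over both diets, for 58 genes of the lipid absorption pathway that are not among the 10, by role. Filled points passed an adjusted p of 0.05; the 14 filled points all lie below 0, with 6 of them in chylomicron assembly and secretion.

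On control diet, where 1.8% of all tested genes were called, 4 of the 58 passed, all lower: Pla2g12b (-1.81), Agpat2 (-1.39), Tm6sf2 (-1.21) and Surf4 (-0.84). On cystine diet, with 2.64% of all tested genes called, Mogat2 (-1.60), Tm6sf2 (-1.25), Abcg8 (-1.24), Surf4 (-1.08), Cideb (-1.05) and P4hb (-0.90) were lower and Apoe, the remnant clearance apolipoprotein that macrophages also secrete, was higher (1.34 ± 0.36, adjusted p = 0.0394). The Apoe call was lost in 17 of 28 fits without 1 library, up to an adjusted p of 0.103 without Lgr5-low cystine replicate 7. On the same diet 8 of 9 tested macrophage markers were higher in Lgr5-high cells, and their part in the Apoe value was not tested. Without Lgr5-low cystine replicate 7 the cystine diet calls of Abcg8 (adjusted p = 0.189), Mogat2 (0.0784), Cideb (0.0654) and Tm6sf2 (0.0508) were lost as well. Over all single omissions Abcg8 lost its call in 10 of 28 and Mogat2 in 6 of 28. Single omissions ended 9 of 28 Agpat2 and 1 of 28 Pla2g12b calls on control diet, each up to the value without Lgr5-low control replicate 7 (adjusted p = 0.101 and 0.0606). For diet, 0 of 58 passed in Lgr5-high cells, in Lgr5-low cells, in the contrast between them or averaged with edgeR, and 5, 1, 4 and 3 had an unadjusted p under 0.05, against 535, 371, 415 and 526 of all 12495 genes. DESeq2 called 1 in Lgr5-high cells and 0 elsewhere, and limma-voom called 0 in all 4. The lowest p in Lgr5-high cells belonged to Apoe (1.45 ± 0.36, adjusted p = 0.113), followed by Abcg8 (-0.82 ± 0.34, 0.957) and Cideb (-0.56 ± 0.24, 0.997). In Lgr5-low cells the lowest p belonged to Kif12 (1.79), Acbd3 (-0.86) and Acsl3 (-0.69), in the contrast to Cideb (-0.89), Apoe (1.31) and Gpat4 (-0.71), and averaged to Apoe (0.80), Apoc1 (0.78) and Abcg8 (-0.55).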

How the data were processed

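RNA was sequenced from 28 libraries, 7 in each of 4 groups (Lgr5-high or Lgr5-low cells, control or cystine diet). The deposited table holds estimated counts per gene, deposited by the authors as integers, so no rounding was needed. The submitters' processing notes name Salmon 1.3.0 and the build mm10, without settings. Of 54354 genes, 12495 passed edgeR's filterByExpr by group. The table lists 1243 entries without a symbol.

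Counts were scaled by TMM and tested with edgeR 4.0.16 (quasi-likelihood, robust, all 4 groups in one fit), with Benjamini-Hochberg adjustment over all tested genes at 0.05. The common biological coefficient of variation was 0.629. SE is the absolute log2 fold change divided by the square root of F. Levels are CPM, with a pseudocount of 1 CPM for log2 scores. Alternatives used DESeq2 1.42.0, limma 3.58.1, RLE size factors, other filters, replicate terms, an Xist term, a hepatocyte score term and the omission of libraries. R 4.3.3 and Python 3.11.15 were used, and the fit was tested on simulated data. The 10 genes, the lists and the division by Xist were chosen with earlier results of these data known. Named from the wider list were genes passing in any comparison, or the 3 of lowest p where fewer passed. The rule for alike genes took the 10 of highest r, some of which are not reported here. Gene positions come from GENCODE M21 and promoters from RefSeq. The submitters' replicate numbers were compared across populations of the same diet. Correlations of deviations from the group means ran from -0.105 to 0.267, not over the criterion of 0.1 in every pair, so the main test did not take the numbers as pairs. Low Xist fell on the same numbers in both populations of a diet, so pairing remains possible. Fits with replicate terms are given below.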

Additional observations from a re-analysis of the deposited data

Results flagged for a closer look

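Dixon's criterion was applied to CPM, not to log levels, in 40 combinations of gene and group. In 10 of them the gap from the highest library to the next was large against the range of the group. In Lgr5-low cystine libraries, replicate 7 was this library for 7 genes: Npc1l1 (124.0 CPM), Fabp2 (2021 CPM), Dgat1 (97.1 CPM), Apob (262 CPM), Apoa1 (1139.8 CPM), Apoa4 (284 CPM) and Apoc3 (408 CPM). In Lgr5-high cystine libraries, replicate 6 was this library for Npc1l1 (59.0 CPM), Apob (152 CPM) and Apoa4 (151 CPM). The summed brush border markers were also highest in their groups in these 2 libraries, at 6269 and 2886 CPM, and their part in the members' values was not tested. The nominal rate of the criterion, about 5% (2 of 40), assumes normally distributed and independent values. On untransformed CPM, and with genes that share libraries, the 10 marks cannot be compared with that rate.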

How the results depend on the processing

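Of 622 values recomputed under settings other than omission, 574 kept their direction and side of the threshold, 25 passed it newly, 7 no longer passed and 16 turned sign. Of 2380 values without 1 library, or without both libraries of a number and diet, 2269 were kept so, 11 passed newly, 47 no longer passed and 53 turned sign. The cause was not tested. The random-effect fit, the paired omissions and the fits within the Xist sets were chosen after seeing the data.

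On control diet the 0 members called became 1 with a replicate block within diet, 1 with DESeq2, 3 with limma-voom and 4 with the replicate block as a random effect, and 0 to 1 on omission. On cystine diet the 1 called became 0 when the other groups were left out of the fit, 2 with a replicate block (Dgat1 at 0.0309 and Npc1l1 at 0.0408, while Mttp at 0.0671 no longer passed), 3 with the block within diet, 2 without libraries under 5 M counts, 2 with an Xist term, 2 with a hepatocyte score term, 2 with DESeq2, 3 with limma-voom, 3 with the random effect and 0 to 3 on omission. The criterion for pairing asked for a correlation over 0.1 in every pair. This was met by 6 of 7 control and 2 of 7 cystine numbers, and the own number gave the best match for 4 of 7 and 3 of 7, a hint of pairing from the data and not from the labels. Averaged over both diets, the block within diet called 6 members in place of 4, with Fabp1 (0.0395) and Fabp2 (0.0329) added.

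For the wider list, the 4 calls on control diet became 2 without libraries under 5 M counts, 11 with limma-voom, 17 with the random effect and 1 to 7 on omission. The 7 on cystine diet became 4 without libraries under 5 M counts, 13 with the random effect and 1 to 7 on omission. Averaged over both diets the 14 became 27 with limma-voom and 28 with the random effect. For diet, the 0 calls in Lgr5-high cells became 2 with the hepatocyte term, 1 with DESeq2 and 0 to 1 on omission, the 0 in the contrast of populations became 1 with the hepatocyte term, and the 0 averaged became 2 with that term and 0 to 1 on omission.

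Within the Xist sets, DESeq2 called 1 member for diet in low-Xist Lgr5-high libraries, 1 in the contrast of sets and 1 between sets in Lgr5-high cystine libraries (0 to 1 on omission). Limma-voom called 2 between sets in Lgr5-high control and 2 in Lgr5-low control libraries. For Lgr5-high against Lgr5-low cells, the 1 call in low-Xist cystine libraries became 0 with limma-voom, 2 with DESeq2 and 0 to 2 on omission, and the 2 in high-Xist control libraries became 0 to 2 on omission.

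The values that turned sign were as follows. For Lgr5-high against Lgr5-low cells, Apob on control diet was 0.0247 with the Xist term and -0.28 to 0.10 on omission, with -0.72 to 0.11 on cystine diet and -0.40 to 0.0365 averaged. Apoa4 ranged from -0.34 to 0.19 on control diet, from -1.32 to 0.0529 on cystine diet and from -1.25 to 0.11 in the contrast of diet effects. For diet in Lgr5-high cells, without libraries under 5 M counts, Fabp1 was -0.10 and Cd36 -0.20 (-0.21 in the contrast). Fabp2 there was 0.0291 with the replicate block, 0.00957 with the Xist term, 0.0542 with limma-voom, 0.0538 with the random effect and -0.14 to 0.0365 on omission. In Lgr5-low cells, without libraries under 5 M counts, the diet values were 0.10 for Apoa4, 0.0515 for Apob, 0.22 for Mttp, 0.0428 for Fabp2, 0.0116 for Dgat1 and 0.00981 for Cd36, and with the Xist term 0.18 for Apoa4 and 0.00178 for Fabp2. On omission they ranged from -0.62 to 0.0221 for Apob, -0.27 to 0.11 for Mttp, -0.26 to 0.0454 for Fabp2, -0.33 to 0.0379 for Dgat1 and -0.71 to 0.0112 for Cd36. The r of members with hepatocyte genes ranged on omission from 0.545 to 0.884 in Lgr5-high control, -0.105 to 0.627 in Lgr5-high cystine, 0.743 to 0.932 in Lgr5-low control and -0.749 to 0.096 in Lgr5-low cystine libraries. Depth limits Cd36 most, with as few as 3 counts in a library.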
